A study of Danio rerio with 6 samples.

Results

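The genes described here encode coreceptors, a signalling chain, kinases, adaptors and a costimulatory receptor of the T cell antigen receptor. They are cd4-1, cd8a, cd8b, cd247l, zap70, lck, lat, themis and cd28, 9 of a set of 10 genes taken by gene name and Ensembl identifier from the 32105 genes of the count table. The rule goes by name and function and uses no count, but the set was chosen with earlier results of these data known. RNA was sequenced from 3 homozygous IT325 mutants and 3 homozygous wild-type siblings, all labelled as whole body at 5 days post fertilization (dpf) and as a mixture of different wild-type strains. IT325 is a line carrying the chemically induced nonsense allele t24980 in ikzf1, whose product Ikaros is a transcription factor of lymphocyte development, and the truncated protein keeps the DNA binding zinc fingers but lacks the C-terminal zinc fingers. Per the methods of the study each library came from an individual fish, so the replicates are taken here as separate animals. The age and the number of fish per library rest on the label and the methods, and were not checked against the counts. Marker levels given below go against the tissue on the same labels, so the age is taken as labelled only.

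In jawed vertebrates the T cell receptor has no enzymatic activity of its own. When it meets a peptide held by an MHC molecule, the coreceptors Cd4 or Cd8 bring the Src-family kinase Lck to the complex, where it phosphorylates motifs in the tails of the Cd3 and Cd247 chains. Zap70 binds these motifs and phosphorylates the adaptor Lat, on which further proteins assemble to drive calcium release and transcription. Themis tunes this signal in thymocytes, and Cd28 adds a second signal in mature T cells. In zebrafish larvae the first T cells form in the thymus, and lck is widely used to mark them.

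The question asked of these libraries is which transcripts differ when Ikaros is truncated. The mutant libraries held 40732782 to 52954765 counts and the wild-type libraries 37390073 to 53279243 counts. The transcript of ikzf1 itself was at 1073, 1730 and 1145 CPM (counts scaled to a common library total) in mutants, against 282, 321 and 311 CPM in wild type, which carries no information on the nucleotide at the mutated site. Of 17828 genes that passed a filter on low counts, 3122 were higher and 2917 lower in mutants at an adjusted p under 0.05 in edgeR's quasi-likelihood test (termed called hereafter). Without scaling factors for the libraries the split was 2428 higher and 3742 lower, and all genes together had a median log2 fold change of -0.11, against -0.01 with the factors used here.

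Skeletal muscle and neural markers were at or near 0 in every library, which goes against the label whole body. Skeletal muscle markers (9 genes) summed to 3.44 to 5.11 CPM in IT325 mutants and 1.86 to 2.75 CPM in wild type, 8 of the 9 were below 1 CPM, and atp2a1 and actn3b were the most abundant. All 5 neural markers were below 1 CPM and summed to 0.368 to 0.727 CPM in IT325 mutants and 0.776 to 1.09 CPM in wild type, with gap43 at 0 in all mutants and neurod1 at 0 in all wild-type libraries. The epidermis list (8 genes, 27.8 to 42.5 CPM in IT325 mutants and 20.4 to 35.7 CPM in wild type) was led by agr2, at 23.1, 24.7 and 37.8 CPM in mutants, against 16.6, 18.4 and 32.5 CPM in wild type, and had 5 genes below 1 CPM, cyt1 at 0 in all mutants and cyt1l at 0 in all wild-type libraries. The liver and pancreas list (5 genes) summed to 17.9 to 31.0 CPM in IT325 mutants and 14.6 to 24.4 CPM in wild type. Blood markers stood far above these. The 5 neutrophil markers, led by lyz and npsn, summed to 24607 to 27795 CPM in IT325 mutants and 17521 to 18364 CPM in wild type, and the 6 erythroid markers, led by hbaa1 and alas2, to 18536 to 25547 CPM in IT325 mutants and 5323 to 8524 CPM in wild type. In bulk RNA, fewer cells of a type and less RNA per cell cannot be told apart, and the part of the tissue make-up in the results was not tested.

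**Figure D1:**
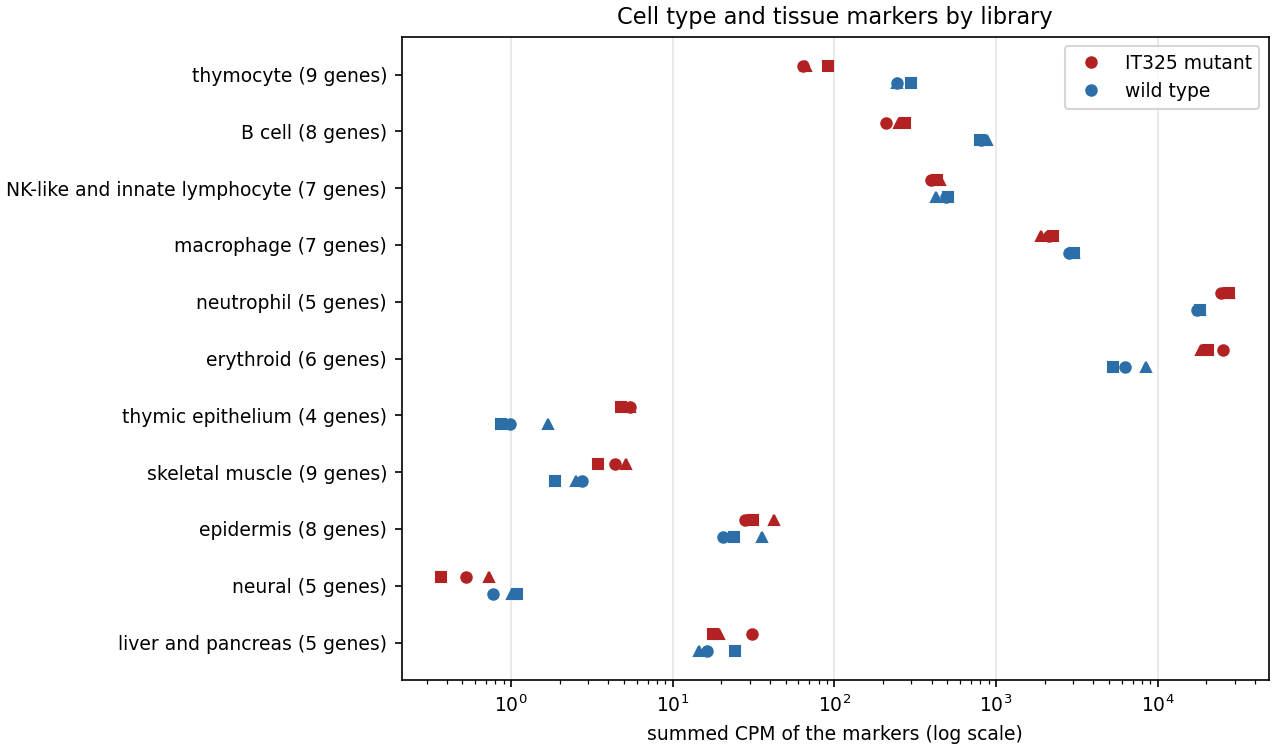
Summed CPM of each marker list (x axis, log scale) in the 3 IT325 mutant libraries (red, upper) and the 3 wild-type libraries (blue, lower), with circles, squares and triangles for replicates 1, 2 and 3. Neutrophil and erythroid markers lie furthest right, thymocyte markers to 64.2 to 91.4 CPM in IT325 mutants and 243 to 296 CPM in wild type, and skeletal muscle and neural markers to a few CPM or less.

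Most of the 9 genes were lower in IT325 mutants. They are termed T cell receptor genes for short, though none encodes an antigen-binding chain of the receptor. Of the 9 genes, 8 passed the filter and cd8b did not. Of the 8 tested, 7 were called lower (cd8a, themis, cd4-1, lck, zap70, cd28 and lat), and the background share of genes called lower was 16.4% (33.9% called in either direction). None was called higher by edgeR or by DESeq2, where the background share by edgeR was 17.5%. At an unadjusted p under 0.05 the counts were 8 lower and 0 higher with either tool. The shares of all genes at this looser threshold were not computed, and by edgeR they cannot be below 16.4% and 17.5%. The median log2 fold change of the 8 was -1.15, against -0.01 over all genes tested. In 8 of the 9 genes every mutant library was below every wild-type library, an arrangement shown by 31.1% of all genes tested. The opposite arrangement was shown by 0 of the 9 genes and by 20.3% of all genes tested. Both arrangements were counted on CPM without scaling factors. These factors were 0.919 to 0.997 in mutants and 1.02 to 1.05 in wild type, so unscaled CPM lie lower in mutants than scaled values would. Cd247l was not called.

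**Figure D2:**
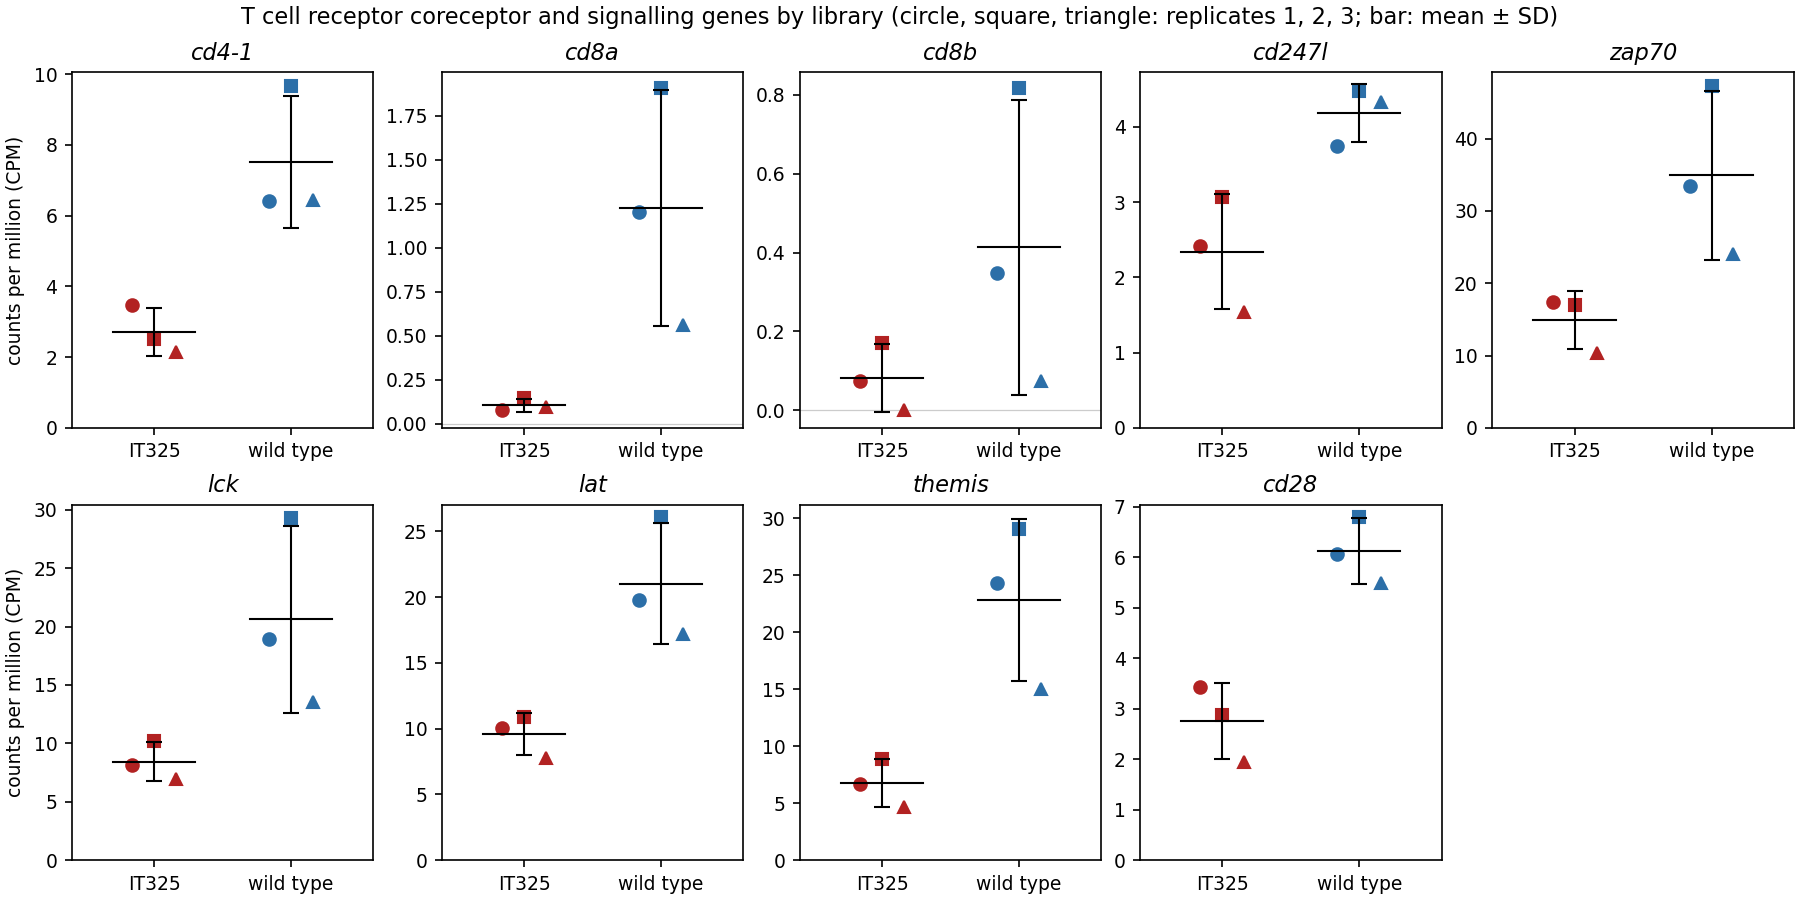
CPM of the 9 genes (one panel each, with its own y axis that includes 0) in the 3 IT325 mutant libraries (red, left) and the 3 wild-type libraries (blue, right), with the mean and SD as bars and circles, squares and triangles for replicates 1, 2 and 3. The groups are apart in every panel but that of cd8b, and wild-type replicate 2 (blue square) is the highest wild-type library in all 9.

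Among the coreceptors, cd8a had the lowest log2 fold change of the 8 genes tested, and cd4-1 was called lower too. Cd8a (ENSDARG00000044797), a chain of the coreceptor that binds MHC class I, had 4, 6 and 4 counts in mutants, against 45, 77 and 30 counts in wild type. In CPM these were 0.0755, 0.147 and 0.0937 in mutants, against 1.204, 1.905 and 0.563 in wild type. The groups did not overlap, and the mutant mean was 8.62% of the wild-type mean. The log2 fold change was -3.41 (edgeR adjusted p 0.00308, SE 0.610), with a 95% interval from -4.80 to -2.02 whose width goes with these low counts.

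Cd8b (ENSDARG00000058682) encodes the partner chain of Cd8a, and both genes lie side by side, with 0 protein-coding genes between them in the RefSeq order of the assembly GRCz12tu. It had 4, 7 and 0 counts in mutants, against 13, 33 and 4 counts in wild type. The groups overlapped, since wild-type replicate 3 had no more counts than mutant replicate 1. The library with 0 counts allows up to 0.0703 CPM, for counting error only. The means were 0.0825 ± 0.0861 CPM in IT325 mutants and 0.413 ± 0.375 CPM in wild type (mean ± SD of 3 fish per genotype). In a fit without the filter, over 25909 genes, cd8b had a log2 fold change of -2.17 (edgeR adjusted p 0.174, SE 1.07), so a difference was not detected. The parts of low counts and of the spread among 3 fish per genotype in this were not tested.

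Cd4-1 (ENSDARG00000070668), the coreceptor for MHC class II, was at 3.47, 2.504 and 2.16 CPM in mutants, against 6.42, 9.67 and 6.46 CPM in wild type. All mutants were below all wild-type fish, at 36.1% of the wild-type mean CPM. The fitted log2 fold change, which uses the scaling factors, was -1.35 (edgeR adjusted p 0.00406, SE 0.255). In zebrafish cd4-1 is also transcribed by some mononuclear phagocytes. Of the 7 macrophage markers, 3 were called lower (cd74a, cd74b and csf1rb) and 2 higher. The 2 higher were marco (log2 fold change 1.24, edgeR adjusted p 0.00676) and csf1ra (0.64, edgeR adjusted p 0.00352). The 7 summed to 1902 to 2258 CPM in IT325 mutants and 2833 to 3031 CPM in wild type, with none at 0. Cd74a and cd74b, the most abundant, made up most of this sum, and the study lists both among its B cell genes as well. The part of macrophages in the values of cd4-1 was not tested.

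Cd247l (ENSDARG00000077240) encodes a protein like Cd247, the zeta chain that carries signalling motifs of the receptor. It was at 2.42, 3.07 and 1.55 CPM in mutants, against 3.74, 4.48 and 4.34 CPM in wild type. The groups did not overlap, but the mutant libraries differed by more among themselves (CV 32.6%) than the wild-type libraries (CV 9.29%). The log2 fold change was -0.73 (SE 0.266), with a 95% interval from -1.33 to -0.12, and did not pass (edgeR adjusted p 0.0655). DESeq2 gave -0.72 with an adjusted p of 0.0467. Leaving out mutant replicate 2 gave -0.94 (edgeR adjusted p 0.0454), and leaving out mutant replicate 3, the library with the lowest level, gave -0.48 (edgeR adjusted p 0.134).

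Both kinases were called lower. Lck (ENSDARG00000102525), which phosphorylates the receptor tails, was at 8.12, 10.2 and 6.91 CPM in mutants, against 19.0, 29.3 and 13.5 CPM in wild type. Every mutant was below every wild-type fish, and wild-type replicate 2 stood above the other wild-type libraries. On the log2 scale the fold change was -1.18 (edgeR adjusted p 0.0198, SE 0.290). The call was lost without mutant replicate 1 (-1.18, edgeR adjusted p 0.0702) and without mutant replicate 3 (-1.03, edgeR adjusted p 0.0708).

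Zap70 (ENSDARG00000015752), the kinase that docks on the phosphorylated tails, was at 17.4, 17.0 and 10.3 CPM in mutants, against 33.4, 47.3 and 24.0 CPM in wild type. The groups were apart, with mutants at 42.7% of the wild-type mean. This log2 fold change was -1.11 (edgeR adjusted p 0.0359, SE 0.312), the call nearest to the threshold among the 7. It was lost in the fits without mutant replicate 1 (-1.27, edgeR adjusted p 0.0581), mutant replicate 2 (-1.19, 0.0836), mutant replicate 3 (-0.88, 0.0701), wild-type replicate 1 (-1.13, 0.0807) and wild-type replicate 2 (-0.84, 0.0735). The direction was the same in each.

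Of the adaptors, themis (ENSDARG00000010619), needed in mice for the positive selection of thymocytes, was at 6.65, 8.89 and 4.69 CPM in mutants, against 24.3, 29.0 and 15.1 CPM in wild type. The lowest wild-type library was well above the highest mutant. Its log2 fold change was -1.65 (edgeR adjusted p 0.00743, SE 0.313), next after cd8a in size. Lat (ENSDARG00000100334), the membrane scaffold phosphorylated by Zap70, was at 10.03, 10.90 and 7.78 CPM in mutants, against 19.8, 26.1 and 17.2 CPM in wild type. Its groups were apart too, with a log2 fold change of -1.03 (edgeR adjusted p 0.00395, SE 0.188).

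Cd28 (ENSDARG00000095070), the receptor for the costimulatory signal, was at 3.44, 2.87 and 1.95 CPM in mutants, against 6.07, 6.80 and 5.50 CPM in wild type. The groups did not overlap, and the fold change was -1.04 on the log2 scale (edgeR adjusted p 0.0113, SE 0.242). From themis to lat, the fold changes of themis, cd4-1, lck, zap70, cd28 and lat lay between -1.65 and -1.03, and the 95% intervals of neighbours in this order overlapped. Levels were not compared between genes, since transcript lengths were not used.

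**Figure D3:**
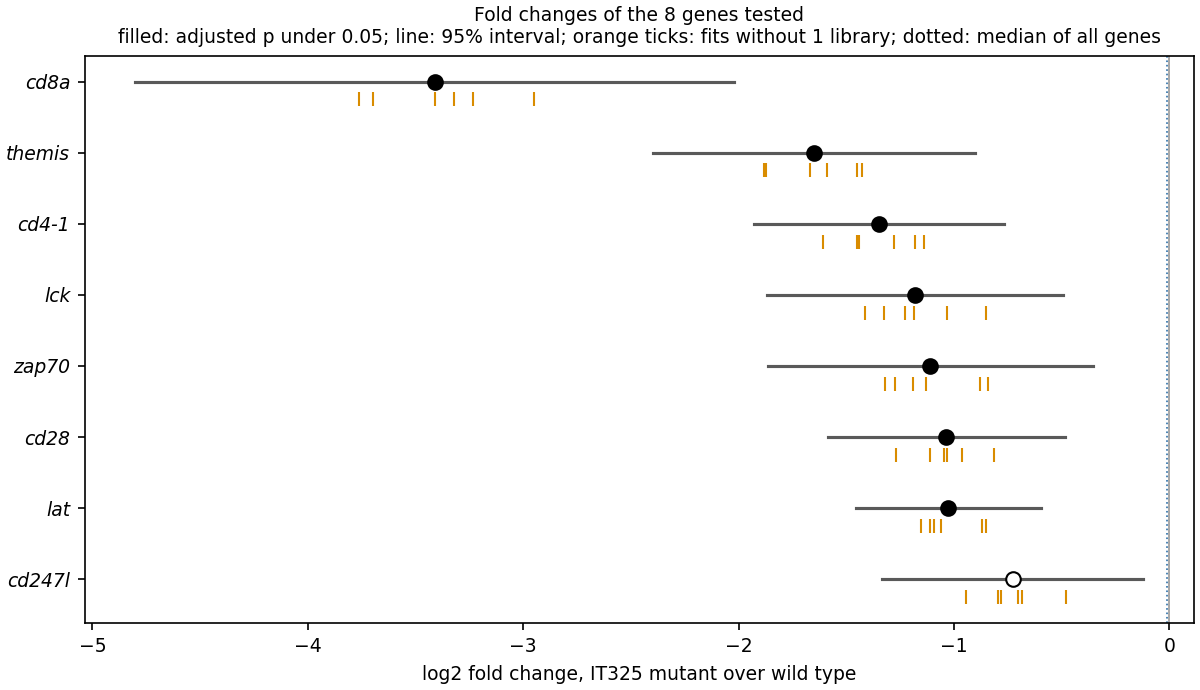
Log2 fold change of IT325 mutant over wild type (x axis) for the 8 genes tested, with 95% intervals as lines, filled points for an adjusted p under 0.05, orange ticks for 6 fits without 1 library each, and a dotted line at the median over all genes tested. Cd8a lies furthest left at -3.41, 6 genes lie between -1.65 and -1.03, and cd247l is at -0.73.

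Ratios of counts within a library show where a pair of these genes changed unequally, whatever the scaling of the libraries. For 3 such ratios the genotypes were compared by exact permutation (two-sided), and the smallest p with 3 libraries against 3 is 0.1. For zap70 and lck the log2 ratio was 1.101, 0.73 and 0.58 in mutants, against 0.82, 0.69 and 0.83 in wild type, so the groups overlapped and the means differed by 0.03 (exact permutation p = 0.9, 0.9 adjusted over the 3). The sign of this difference turned without mutant replicate 1 (-0.12) and without wild-type replicate 2 (-0.02).

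The log2 ratio of cd8a to cd4-1 was -5.36, -3.98 and -4.36 in mutants, against -2.40, -2.34 and -3.50 in wild type. Every mutant was lower, with a mean difference of -1.82 (exact permutation p = 0.1, 0.3 adjusted), with 4 to 6 counts of cd8a behind each mutant value. The log2 ratio of cd8a to cd8b was 0.99 ± 1.89 in IT325 mutants and 1.91 ± 0.787 in wild type (mean ± SD of 3 fish per genotype) and overlapped between the groups (exact permutation p = 0.6, 0.9 adjusted). The difference of -0.92 was -0.32 without mutant replicate 2, -0.43 without mutant replicate 1, -0.49 without wild-type replicate 3 and -2.01 without mutant replicate 3, the library with 0 counts of cd8b.

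**Figure D4:**
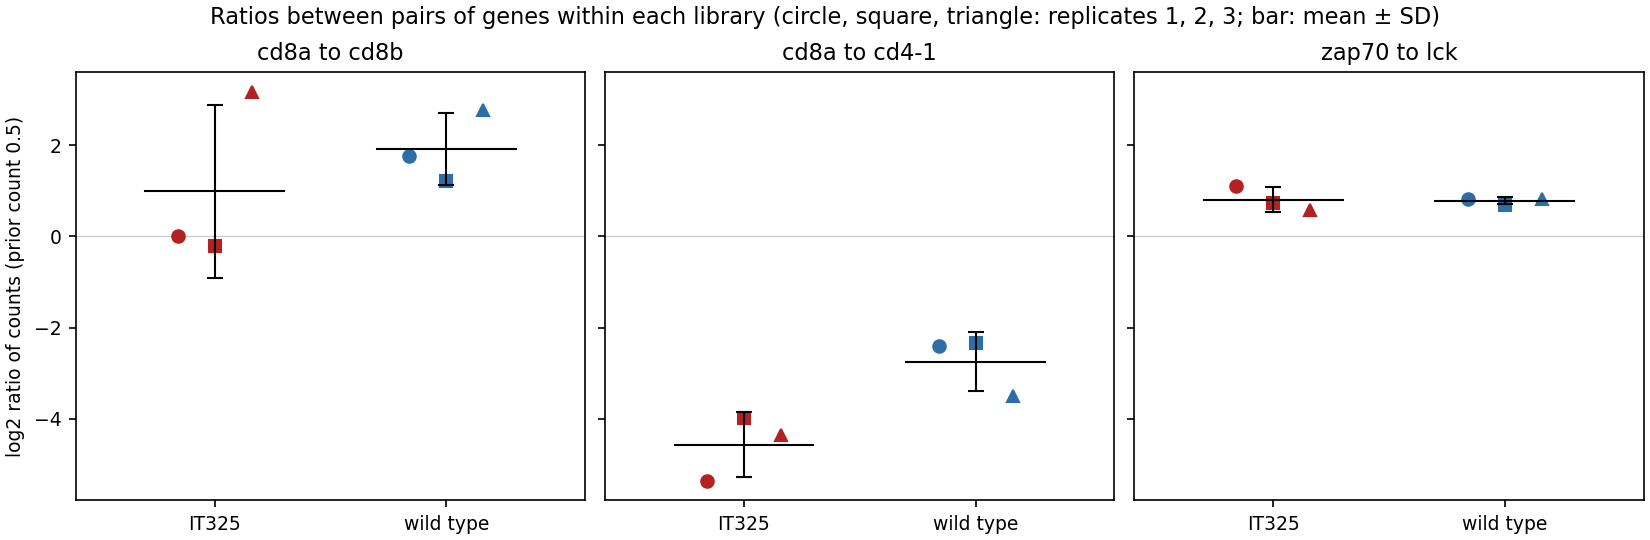
Log2 ratio of counts for 3 pairs of genes (y axis, prior count 0.5) in the 3 IT325 mutant libraries (red, left) and the 3 wild-type libraries (blue, right), with mean and SD as bars. The cd8a to cd4-1 ratio is lower in every mutant, at -5.36 to -3.98, than in wild type, at -3.50 to -2.34, whereas the zap70 to lck ratios of the groups overlap.

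Within each genotype the same library was often the highest or the lowest across the genes. This describes 3 fish per genotype, and the 9 genes are not separate replicates of it. Wild-type replicate 2 was the highest wild-type library in all 9 genes, and wild-type replicate 3 the lowest in 7. Among all genes tested, 35.7% had their highest wild-type level in replicate 2. The share with their lowest level in wild-type replicate 3 was not computed. Mutant replicate 3 was the lowest mutant in 8 of the 9 genes, against 25.9% of all genes tested. Over the 9 genes the CV was 16.8% to 104% in IT325 mutants and 9.29% to 90.8% in wild type, with the highest value in both groups for cd8b, and the median CV of all genes tested was 13.1% in IT325 mutants and 12.5% in wild type. Summed over the 9 genes, the level was 51.7, 55.8 and 35.5 CPM in mutants, against 114, 155 and 86.8 CPM in wild type.

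Markers of thymocytes moved the same way, at different sizes. All 9 were called lower, with a median log2 fold change of -1.53, and their sum was 64.2 to 91.4 CPM in IT325 mutants and 243 to 296 CPM in wild type. Rag1, which with rag2 encodes the recombinase that assembles receptor genes, was at 4.49, 16.0 and 7.59 CPM in mutants, against 80.1, 72.7 and 86.5 CPM in wild type. Rag2 was at 2.36, 6.53 and 5.86 CPM in mutants, against 40.9, 44.1 and 53.6 CPM in wild type. The log2 fold changes of rag1 and rag2 were -3.01 and -3.15 (edgeR adjusted p 0.0056 and 9.52e-04), near that of cd8a and below those of the other T cell receptor genes. Their difference from those genes was not tested. Within wild type, 6 of the 9 thymocyte markers were highest in replicate 2, where all 9 T cell receptor genes were highest too. The share over all genes tested was 35.7%, and 3 of the 8 B cell markers were highest there. Rag1 and rag2 were instead highest in replicate 3, where 7 of the 9 T cell receptor genes were lowest, a count without a share over all genes. In mutants rag1 and rag2 were lowest in replicate 1, whereas 8 of the 9 T cell receptor genes were lowest in replicate 3 (25.9% of all genes tested). B cells also use rag1 and rag2, so the list is not particular to thymocytes. Among the B cell markers, cd79a, cd79b, pax5, blnk, btk and cd22 were lowest in mutant replicate 1, as rag1 and rag2 were. Ighm and ighd were lowest in mutant replicate 3. The part of B cells in the levels of rag1 and rag2 was not tested. Of 8 B cell markers 7 were called lower and 1 higher, with a median of -2.35 and a sum of 209 to 273 CPM in IT325 mutants and 798 to 876 CPM in wild type, and ighm and blnk the most abundant.

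NK-like lymphocytes, which in mammals share lck, zap70 and lat with T cells, were followed by 7 markers, led by nccrp1 and il2rb. They summed to 398 to 448 CPM in IT325 mutants and 423 to 502 CPM in wild type, so the groups overlapped, and none was at 0. Nccrp1, at 299, 317 and 361 CPM in mutants, against 351, 363 and 318 CPM in wild type, made up most of this sum. The sum therefore says little about the other markers. The median log2 fold change of the 7 was -0.37, with 1 called lower (gzmk, -1.09, edgeR adjusted p 0.0220) and 0 higher. Thymic epithelium markers were scarce, at 4.79 to 5.44 CPM in IT325 mutants and 0.866 to 1.69 CPM in wild type for 4 genes led by dll4 and krt5. Its 2 tested genes, foxn1 and dll4, were both called higher, and krt5 and psmb11b did not pass the filter. Krt5, also on the epidermis list, had 62, 8 and 80 counts in mutants, against 4, 1 and 5 counts in wild type. Like foxn1, it was highest in mutant replicate 3. Foxn1, the transcription factor that defines thymic epithelium, had 21, 10 and 44 counts in mutants, against 0, 0 and 4 counts in wild type (log2 fold change 4.22, edgeR adjusted p 0.0150). Without mutant replicate 3 its call was lost (3.51, edgeR adjusted p 0.0624). Dll4 is also transcribed by endothelium, and its log2 fold change was 1.92 (edgeR adjusted p 0.00250). Psmb11b had 0 counts in all mutants, against 3, 0 and 7 counts in wild type. Of the neutrophil markers 3 were called higher and 1 lower, and of the erythroid markers all 6 were called higher. No tested muscle, epidermis or neural marker was called, and of the liver and pancreas markers 1 was called higher. The part of these cell types in the levels of the T cell receptor genes was not tested.

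The other receptor pathway genes that could be matched leaned the same way. Of 86 such genes listed, 44 matched exactly 1 gene by symbol, and of the 11 receptor chains and coreceptors among them 3 did. The others were left out for their symbols, so the counts do not cover the whole pathway. Of the 44 matched, 42 were tested, of which 26 were called lower (background 16.4%), 2 higher (background 17.5%) and 14 neither. Their median log2 fold change was -0.64, against -0.01 for all genes tested. Many of these genes are also used outside T cells, so the counts describe the matched part of the pathway and not the cell type.

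Among receptor chains and coreceptors, trbc1, a constant region of the receptor beta chain, was at 8.69, 9.97 and 6.42 CPM in mutants, against 17.4, 24.7 and 13.8 CPM in wild type. It was lower in every mutant, with a log2 fold change of -1.04 (edgeR adjusted p 0.0148, SE 0.247). Cd247, the paralog of cd247l, went the opposite way, at 9.56, 5.57 and 8.09 CPM in mutants, against 2.78, 2.72 and 2.83 CPM in wild type. The groups were far apart, and the log2 fold change was 1.59 (edgeR adjusted p 9.39e-04, SE 0.225), from 1.37 to 1.79 in the fits that left out 1 library. Cd4-2.2, a second cd4 gene, was at 0.151, 0.295 and 0.398 CPM in mutants, against 0.455, 1.09 and 0.582 CPM in wild type. Its log2 fold change of -1.24 did not pass (edgeR adjusted p 0.116, SE 0.549).

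Of 5 costimulatory and inhibitory receptors tested 2 were called lower and 0 higher. They were cd40lg, the ligand by which helper T cells activate B cells (log2 fold change -1.31, edgeR adjusted p 0.00111), and cd28l, a relative of cd28 (-1.26, edgeR adjusted p 0.0151). Cd28l was at 3.06, 2.48 and 1.31 CPM in mutants, against 6.23, 6.51 and 5.09 CPM in wild type, in the order of cd28 among the mutants. Its call was lost without wild-type replicate 1 (-1.21, edgeR adjusted p 0.0500035). Cd226 had a log2 fold change of -0.77 (edgeR adjusted p 0.134). Btla had 0 counts in all 6 libraries.

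Of 8 kinases and phosphatases 4 were called lower and 1 higher. Syk, the relative of Zap70 that serves the B cell receptor and myeloid receptors, was at 115, 155 and 149 CPM in mutants, against 347, 421 and 392 CPM in wild type. Its log2 fold change was -1.37 (edgeR adjusted p 3.80e-05, SE 0.104). Csk, which restrains Lck, fell by 0.84 and ptprc, the phosphatase Cd45 that releases this restraint, by 0.69 on the log2 scale (edgeR adjusted p 8.20e-05 and 3.62e-04). The gene called higher, named after its values were seen, was tec (0.32, edgeR adjusted p 0.0197). It lost its call without mutant replicate 3 (0.26, edgeR adjusted p 0.0564), without wild-type replicate 1 (0.29, edgeR adjusted p 0.0709) and without scaling factors (0.22, edgeR adjusted p 0.133).

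Adaptors and ubiquitin ligases had 9 of 13 tested genes called lower and 0 higher. Sla2a, related to an adaptor that in mammals lowers receptor signalling, had a log2 fold change of -2.16. Skap1, an adaptor linking the receptor to integrins, was at 11.8, 14.3 and 11.6 CPM in mutants, against 39.9, 47.4 and 43.5 CPM in wild type (log2 fold change -1.69). Grap2b, related to the Gads adaptor that binds Lat, fell by 1.04 on the log2 scale. The edgeR adjusted p-values of sla2a, skap1 and grap2b were 6.27e-05, 1.60e-05 and 1.12e-05.

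Effectors had 10 of 13 genes called lower and 0 higher. Nfatc1, a calcium-responsive transcription factor, was at 0.359, 0.344 and 0.539 CPM in mutants, against 3.10, 3.12 and 2.83 CPM in wild type, a log2 fold change of -2.76 (edgeR adjusted p 2.09e-04, SE 0.295). Nfatc3b fell by 0.68 on the log2 scale (edgeR adjusted p 6.03e-04).

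**Figure D5:**
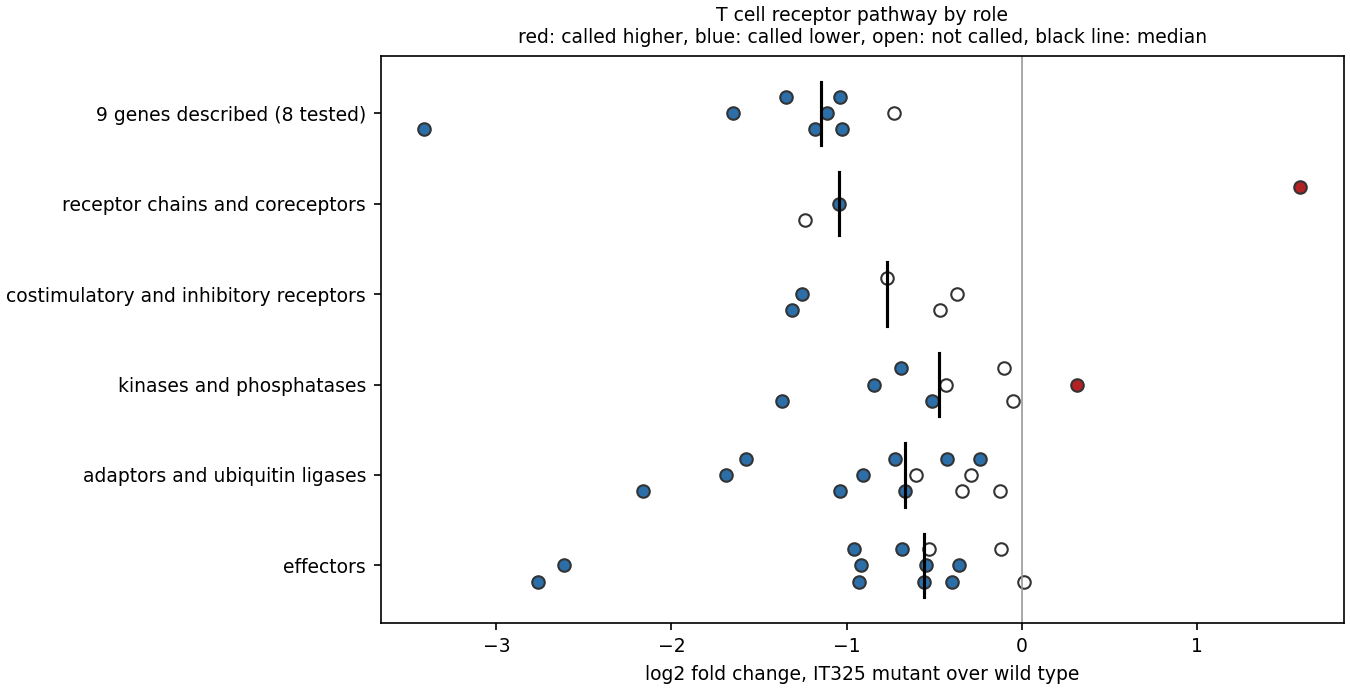
Log2 fold change of IT325 mutant over wild type (x axis) for the 8 T cell receptor genes tested (top) and the 42 other pathway genes tested, by role, with blue for called lower, red for called higher, open points for not called and a black line at each median. Most points lie left of 0, and the red points are cd247 at 1.59 and tec at 0.32.

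The genes most alike in pattern were sought over the 6 libraries by Pearson's r between the log2 CPM of a gene and the mean log2 CPM of the 8 tested T cell receptor genes. Among 14502 other genes at a mean of at least 1 CPM, ARID1B, a subunit of a chromatin remodelling complex, was the most alike (r = 0.996), followed by si:ch73-343g19.5, si:ch211-112c15.8, SATB1, a chromatin organiser of thymocytes in mice, and il7r, a cytokine receptor chain of lymphocytes and one of the thymocyte markers, with r of 0.993 or more. All 5 were lower in mutants, with log2 fold changes from -1.59 for si:ch73-343g19.5 to -0.32 for ARID1B. The 6 points form the 2 genotype groups, so that much of each r is the difference between them, and 1226 genes reached an r above 0.9. Of the T cell receptor genes, lat followed the mean of the others most closely (r = 0.999) and cd247l least closely (r = 0.866).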

How the data were processed

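Poly-A selected, stranded, paired-end libraries were sequenced by the authors, aligned with STAR 2.5.2b-1 to the zebrafish genome and counted per Ensembl gene (annotation Zv10.85) with featureCounts 1.6.0.1. The deposited values are raw counts per gene without scaling, and all 6 columns were used. The study states default parameters for its tools, which for featureCounts means counting without regard to strand, so reads of overlapping antisense genes may be included.

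The members and lists were chosen with earlier results of these data known. Of the 10 members, 1 is not reported here, nor are some pathway genes the naming rule gives, so the counts, medians, sums and ratios of members cover the other 9 and do not describe all 10. Of 192 list entries, 117 matched exactly 1 table gene by symbol, case ignored, and 75 were left out. In edgeR 4.0.16 (R 4.3.3), genes were kept by filterByExpr (minimum count 10), scaled by TMM and compared by a robust quasi-likelihood test without covariates, with two-sided p-values adjusted by the Benjamini-Hochberg method over all genes tested (threshold 0.05). Fold changes are mutant over wild type, with a prior count of 0.125. CPM are counts scaled by column totals. They, the percents of wild-type means and the overlaps between groups leave out the TMM factors, which the fold changes use. The log2 CPM behind Pearson's r and behind the correlations of replicates use the TMM factors and a prior count of 2. Floors of 3 counts cover counting error only. The 95% intervals rest on 3 fish per group and on a spread estimate that borrows from all genes tested. Named genes were the members, ikzf1, rag1, rag2, the 3 genes of smallest p per pathway role, up to 2 most abundant genes per marker list and the 5 genes most alike. Outside this rule, tec, btla, gap43, neurod1, cyt1, cyt1l, foxn1, psmb11b, marco, csf1ra, csf1rb and gzmk were named after their values were seen. So were cd79a, cd79b, pax5, btk, cd22 and ighd.

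Alternatives were median-ratio, upper-quartile, no scaling or TMM without the 50 most abundant genes, no filter, a mean of at least 10 counts, DESeq2 1.42.0, a replicate block, other prior counts and fits without 1 library (for the ratios, and all settings for foxn1, dll4, rag1 and rag2, added after seeing the data). On simulated counts for 17828 genes with 200 changed, drawn 5 times, edgeR recovered 56.6% of 2-fold and 76.6% of 4-fold changes, with 8.89% of calls false. In the data 6039 genes (33.9%) were called, far more than the 200 simulated, so these rates need not hold for this comparison.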

Additional observations from a re-analysis of the deposited data

How the results depend on the processing

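Across the other scalings, filters and tests and the fits without 1 library, 114 of 126 refitted fold changes of the T cell receptor genes and ikzf1 kept their direction and side of the threshold, 9 lost a call, 3 gained one and 0 changed sign. The calls lost were those of zap70 and lck, which also lost theirs without the filter (edgeR adjusted p 0.106 and 0.0518). The calls gained were those of cd247l (also without scaling factors, -0.84, edgeR adjusted p 0.0365). Called lower were 5 of the 9 genes without the filter, 8 without scaling factors and with DESeq2, and 7 under the other settings. Without 1 library 5 to 7 were called lower. None of the 9 was called higher under any of these settings, DESeq2 included. Of all genes, 2777 of 25909 were called lower without the filter, 3742 of 17828 without scaling factors and 3042 of 17828 with DESeq2. Called higher were 3099, 2428 and 3468, in the same order. The other settings gave 2523 to 3179 lower and 2847 to 3208 higher. Without 1 library 2178 to 2670 of all genes were called lower and 2409 to 3308 higher, of 18252 to 18477 tested. Of the other pathway genes 22 to 25 were called lower and 1 to 2 higher without 1 library, and 1 was called higher without scaling factors. The log2 fold change of ikzf1 was 1.98 to 2.33 without 1 library. The difference in the zap70 to lck ratio ranged from -0.12 to 0.14 without 1 library. The ratio of cd8a to cd8b had no value at a prior count of 0, because 1 library held 0 counts of cd8b. Replicate numbers are shared by the groups, and deviations of same-numbered libraries correlated at 0.0559, 0.122 and 0.0939. Mutant replicates 2 and 3 correlated most with their own number. Mutant replicate 1 correlated no better with its own number than with wild-type replicate 3 (0.0560). With 3 libraries per group, these low values cannot decide whether libraries were paired. With the replicate block 7 of the 9 genes and 26 other pathway genes were called lower, and 2847 genes were called higher and 2523 lower overall. Depth limits cd8a and cd8b, with at most 7 counts in a mutant library.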
